A study of Homo sapiens with 15 samples.

Results

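The replication-dependent histone genes encode the core histones H2A, H2B, H3 and H4 and the linker histone H1, the proteins around which newly copied DNA is wound. They were taken as every probe set whose only gene symbol was H1-1 to H1-6 or began with H2AC, H2BC, H3C or H4C followed by a number, dim probe sets included. This gave 51 probe sets for 45 genes, of 41092 probe sets naming 1 gene and 19775 genes so named in the series. By class there were 7 probe sets for 6 H1 genes, 11 for 9 H2A genes, 15 for 14 H2B genes, 8 for 7 H3 genes and 10 for 9 H4 genes. H2AC5P and H4C10P are pseudogenes. A further 20 probe sets name several of these genes at once and are described apart.

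All 15 arrays came from IMR32, an established human neuroblastoma line with amplified MYCN, as 1 clone that carries the tetracycline repressor (pcDNA6/TR) and a short hairpin RNA against CDK2 (pTER/CDK2) aimed at nucleotides 546 to 566 of its mRNA. Doxycycline at 100 ng/ml relieves the repressor, and total RNA taken 0, 8, 24, 48 and 72 h after doxycycline was hybridised to Affymetrix U133 Plus 2.0 arrays, 3 per time. All 5 groups share the clone, both vectors, medium with 10% fetal calf serum and the selection drugs blasticidin (5 µg/ml) and zeocin (10 µg/ml). Hours are taken from knowledge of the study, since no label states the unit of time. No later time has an arm without doxycycline or with another hairpin, so time in culture, doxycycline and loss of CDK2 cannot be told apart, and the labels do not say whether the 3 arrays of a time are separate cultures.

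Replication-dependent histone genes lie in clusters, the largest on chromosome 6, and are transcribed mainly in S phase. Their transcripts end in a stem-loop instead of a poly(A) tail. SLBP binds the stem-loop, and the U7 particle with a cleavage complex cuts behind it. NPAT, a substrate of cyclin E with CDK2, drives their transcription, and their transcripts are normally destroyed when DNA replication stops. Several histone genes are also known to give polyadenylated transcripts. The one-cycle kit named in the labels starts cDNA synthesis from an oligo(dT) primer, so what it reads is chiefly polyadenylated RNA, and the share of each histone transcript that carries a tail is not known here.

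On its brightest probe set CDK2 fell at every later time. Its signal was 245.5, 236.0 and 213.7 on the 0 h arrays, 100.8, 92.6 and 90.2 at 8 h, 81.0, 87.8 and 72.4 at 24 h, 52.7, 53.0 and 40.1 at 48 h, and 30.0, 40.0 and 20.2 at 72 h. No array of a later time reached those of 0 h, and the change at 72 h was -2.45 (SE 0.14, adjusted p = 3.7e-09). Here and below, a signal is the deposited MAS5 intensity, a change is a difference of group means of log2(signal + 16) with n = 3 arrays per time, and a probe set is called at an adjusted p under 0.05 in limma over all 54613 probe sets that are not controls. The added 16 makes the change of a dim probe set smaller than its ratio of signals. The second CDK2 probe set fell by 2.02 (SE 0.26) at 72 h, and the other one was dim, with mean signals of 3.93 at 0 h and 3.43 at 72 h. P-values here measure only the spread between arrays, which may be technical.

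The upstream sequences of 7 members are shown because the results turn on these genes: 6 that rose and H4C11, whose signal hardly differed between 0 and 72 h. Each is the 250 bases before the RefSeq start of the gene on build GRCh38.p14, written 5′ to 3′ on the gene's own strand, with matches in capitals. The motifs searched were TATAA (the TATA box, read as TTATA on the opposite strand), CCAAT (the CCAAT box, opposite ATTGG) and ATTTGCAT (the octamer bound by POU2F1, opposite ATGCAAAT). The TATA motif and its reverse complement overlap where the letters read TTATAA. H1-2 is at chr6:26056471-26056720 on the minus strand, H2AC25 at chr1:228457874-228458123 (minus), H2AC6 at chr6:26123922-26124171 (plus), H2BC5 at chr6:26157871-26158120 (plus), H2BC12 at chr6:27146859-27147108 (minus), H4C8 at chr6:26285535-26285784 (minus) and H4C11 at chr6:27823842-27824091 (plus). For H2BC5 and H2BC12 the first of 2 listed starts is shown.
H1-2: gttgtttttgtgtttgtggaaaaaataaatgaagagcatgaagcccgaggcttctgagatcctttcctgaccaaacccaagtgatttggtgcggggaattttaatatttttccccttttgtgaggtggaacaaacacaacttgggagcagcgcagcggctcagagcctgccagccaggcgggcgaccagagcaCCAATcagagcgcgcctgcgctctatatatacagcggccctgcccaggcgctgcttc
H2AC25: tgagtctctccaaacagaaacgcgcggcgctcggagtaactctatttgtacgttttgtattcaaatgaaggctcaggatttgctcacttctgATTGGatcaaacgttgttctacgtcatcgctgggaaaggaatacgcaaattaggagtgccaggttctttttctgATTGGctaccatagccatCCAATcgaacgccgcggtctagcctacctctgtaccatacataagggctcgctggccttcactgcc
H2AC6: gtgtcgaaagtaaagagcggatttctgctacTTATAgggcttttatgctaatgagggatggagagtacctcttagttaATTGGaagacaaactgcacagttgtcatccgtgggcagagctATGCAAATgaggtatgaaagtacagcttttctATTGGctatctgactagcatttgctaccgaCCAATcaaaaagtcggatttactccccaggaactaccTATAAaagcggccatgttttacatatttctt
H2BC5: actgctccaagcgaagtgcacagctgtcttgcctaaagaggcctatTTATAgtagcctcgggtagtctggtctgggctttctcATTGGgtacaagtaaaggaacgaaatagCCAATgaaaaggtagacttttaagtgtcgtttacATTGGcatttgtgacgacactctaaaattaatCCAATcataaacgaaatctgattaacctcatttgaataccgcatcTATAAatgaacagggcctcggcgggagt
H2BC12: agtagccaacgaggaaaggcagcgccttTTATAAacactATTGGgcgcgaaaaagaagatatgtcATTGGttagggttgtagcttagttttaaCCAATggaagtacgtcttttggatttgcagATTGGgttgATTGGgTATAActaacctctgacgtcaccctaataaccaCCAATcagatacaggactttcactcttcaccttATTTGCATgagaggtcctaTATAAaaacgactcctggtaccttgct
H4C8: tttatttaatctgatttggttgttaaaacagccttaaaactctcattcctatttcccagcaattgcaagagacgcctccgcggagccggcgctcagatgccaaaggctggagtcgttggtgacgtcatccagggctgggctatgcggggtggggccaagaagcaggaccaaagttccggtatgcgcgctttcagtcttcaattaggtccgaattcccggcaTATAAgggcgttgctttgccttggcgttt
H4C11: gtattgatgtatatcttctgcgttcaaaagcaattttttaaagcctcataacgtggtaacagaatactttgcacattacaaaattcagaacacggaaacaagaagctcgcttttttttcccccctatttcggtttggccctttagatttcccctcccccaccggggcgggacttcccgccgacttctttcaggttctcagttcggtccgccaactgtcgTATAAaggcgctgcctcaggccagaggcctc

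Of the 45 member genes, 40 have such a window, and the letters of these boxes are common in them. TATAA or its reverse complement occurs in 95% of the 40, against 22.5% of the 27305 genes with a window, counting a gene if any of its windows holds it. CCAAT occurs in 87.5% against 37%, and the octamer in 40% against 2.03%. The octamer stands in 6 of 8 H2A genes and 10 of 13 H2B genes, and in none of the 6 H1, 6 H3 and 7 H4 genes. Matches on either strand were counted, and some H2A and H2B genes have overlapping windows. A match can therefore count for both genes, or face the neighbouring gene. CCAAT is in every H1, H2A, H2B and H3 gene with a window but in 2 of 7 H4 genes. The windows printed for H4C8 and H4C11 have the same make-up in these terms. Each holds a single TATAA, whose first base lies 29 and 31 bases before the start. H4C8 rose at 72 h, and the H4C11 probe set had no call. The accession listed for that probe set is that of H4C12, so its signal may not be that of the H4C11 gene. Among the 19 genes with a window that were called higher at 72 h, 47.4% hold the octamer, against 33.3% of the 21 without a call. The other motifs go the other way, with 89.5% against 100% for TATAA and 84.2% against 90.5% for CCAAT. Whether these shares differ was not tested, and the octamer split is also one between histone classes. These are descriptions of letters in a window, not of sites in use.

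Most histone probe sets had no call through 24 h, many rose at 48 and 72 h, and none of the 51 probe sets was called lower at any time. At 8 h the median change of the members was -0.11, with 0 called in either direction by limma and 3 at an unadjusted p under 0.05. Over all probe sets 0.0128% were called higher and 0.0916% lower at 8 h. At 24 h 2 members were called higher (all probe sets: 1.45% higher, 1.55% lower), and the median change was 0.02. At 48 h 12 members from 9 genes were called higher, which is 23.5% of the 51 (all probe sets: 9.18% higher, 6.26% lower). At 72 h 24 members from 21 genes were called higher, or 47.1% (all probe sets: 13.5% higher, 9.09% lower), and the median change was 0.50, beside 0.05 over all probe sets. Unadjusted p-values from limma fell under 0.05, in either direction, for 5 members at 24 h, 20 at 48 h and 28 at 72 h. The share of all probe sets under this unadjusted threshold is not given here. The unadjusted counts, that of 8 h included, are therefore not read as a result about the members.

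**Figure D1:**
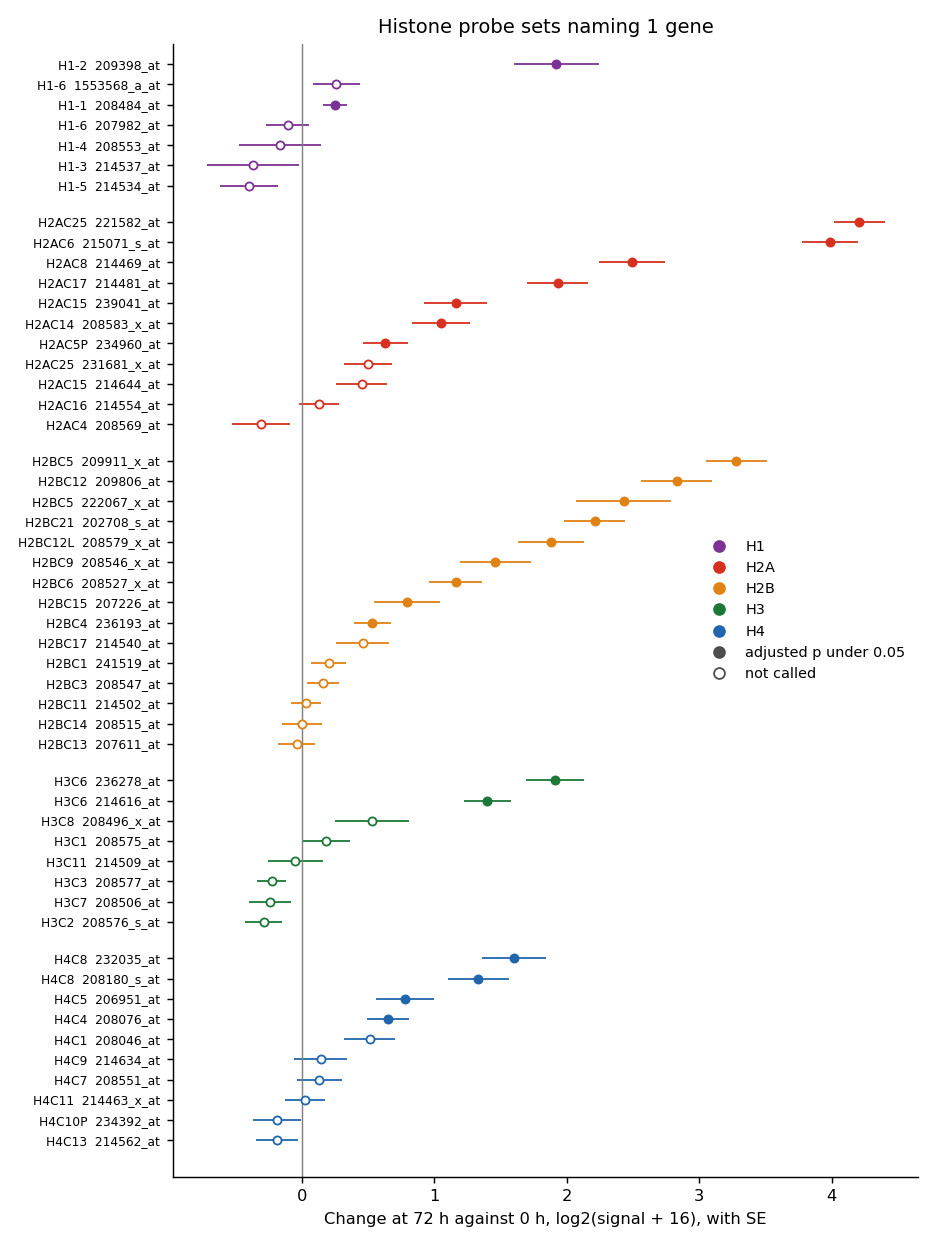
Change at 72 h against 0 h on the log2(signal + 16) scale for the 51 histone probe sets naming 1 gene, with the standard error as a bar, ordered by size within the 5 classes; filled points are called at an adjusted p under 0.05. The H2A probe set of H2AC25 (4.21) and that of H2AC6 (3.99) lie farthest to the right, and the open points, without a call, reach from -0.40 to 0.53.

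The 12 members called at 48 h were all called again at 72 h. Of the 24 called at 72 h, the first call came at 24 h for 2, at 48 h for 10 and at 72 h for 12. In all, 18 of them had a change above 1, as had 1246 of the 7353 probe sets called higher in the whole table. Among all 54613 probe sets, H2AC25 had the 2nd largest rise at 72 h, H2AC6 the 3rd and H2BC5 the 11th. One array stood out beside these values: replicate 3 at 72 h was the highest of its time for 21 of the 24 called members, as was replicate 3 at 48 h for 22 of them, while at 0 h replicate 3 was the highest for 11. Without replicate 3 at 72 h 21 members were called higher, and with replicates 1 and 2 of every time alone also 21. What sets these arrays apart was not tested.

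Probe set design touches these counts. The suffixes _x_, _s_ and _a_ mark probe sets that may match related transcripts, and the coding sequences within a histone class are close to identical. Of the 14 members with such a suffix 9 were called higher at 72 h, and of the 37 without one 15 were. A RefSeq accession is listed for 34 members, and 33 of these accessions belong to the gene named. The exception is H4C11, whose accession is that of H4C12. In bulk RNA, more transcript per cell and more cells making it cannot be told apart.

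H2A held the greatest rises, with 7 of 11 probe sets called higher at 72 h and a median change of 1.05. H2A pairs with H2B in the nucleosome. The signal of the H2AC25 probe set with the greater change was 61.1, 41.8 and 68.2 at 0 h, 51.5, 73.1 and 51.8 at 8 h, 141.0, 137.5 and 126.1 at 24 h, 709.8, 593.3 and 894.5 at 48 h, and 1091.0, 1140.7 and 1850.1 at 72 h. From 24 h on, every array lay above every array of 0 h, and the mean signal at 72 h was 23.9 times that of 0 h. Its change was 1.06 (SE 0.19, adjusted p = 0.0057) at 24 h, 3.36 at 48 h and 4.21 (SE 0.19, adjusted p = 3.3e-10) at 72 h. H2AC25 lies on chromosome 1, away from the large cluster. The second H2AC25 probe set was dim, with mean signals of 7.57 at 0 h and 16.7 at 72 h, and its change of 0.50 (SE 0.18, adjusted p = 0.057) was not called, so the probe sets of this gene disagree in size.

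H2AC6 read from 13.3 to 22.5 at 0 h, 12.4, 12.8 and 20.4 at 8 h, 41.2, 42.6 and 47.1 at 24 h, 228.1, 217.3 and 426.4 at 48 h, and 428.5, 483.4 and 617.5 at 72 h. The arrays of 0 and 8 h overlap, those of 24 h lie above both, and those of 48 and 72 h lie above 24 h. The change was 0.87 (SE 0.21, adjusted p = 0.033) at 24 h and 3.99 (SE 0.21, adjusted p = 9.7e-10) at 72 h. The call at 24 h was lost when any 1 array of 24 h, or replicate 1 or 3 of 0 h, was left out, and also with pseudocount 64, under either other scaling and without the intensity trend, leaving H2AC25 as the only call. The call at 72 h stood under every alternative in which H2AC6 was fitted, which leaves out that of the brightest 25% of probe sets.

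H2AC8 was hardly above zero at the start, at 0.8, 6.5 and 1.0, and reached 29.3, 19.0 and 51.7 at 48 h and 66.7, 74.4 and 136.3 at 72 h. Its change at 72 h was 2.49 (SE 0.25, adjusted p = 1.9e-06), with no overlap between the arrays of 0 and 72 h. H2AC17 went from 13.4, 18.6 and 20.6 to 84.4, 104.9 and 152.0, a change of 1.93 (SE 0.23). Lesser rises were called for one H2AC15 probe set (1.16), H2AC14 (1.05) and the pseudogene H2AC5P (0.63). The other H2AC15 probe set had a change of 0.45 (SE 0.19) without a call. H2AC16 (0.13) and H2AC4 (-0.31) were not called at any time, and their mean signals stayed under 20 at all 5 times.

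In H2B 9 of 15 probe sets from 8 genes were called higher at 72 h, with a median change of 0.79 and 0 calls at 24 h. The H2BC5 probe set with the greater change read 83.4, 81.2 and 101.6 at 0 h, 67.3, 93.4 and 75.8 at 8 h, 121.4, 105.0 and 118.8 at 24 h, 427.9, 329.9 and 676.7 at 48 h, and 776.2, 852.4 and 1485.4 at 72 h. All arrays of 48 and 72 h lie above all earlier ones. Its change was 2.18 (SE 0.23) at 48 h and 3.28 (SE 0.23, adjusted p = 2.9e-08) at 72 h. The second H2BC5 probe set went the same way with more scatter, from 89.9, 76.0 and 98.0 to 300.5, 765.8 and 693.6, a change of 2.43 (SE 0.36).

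H2BC12 read 127.8, 128.0 and 167.8 at 0 h, 102.5, 95.0 and 167.0 at 8 h, 127.7, 120.9 and 133.1 at 24 h, 366.5, 336.1 and 649.6 at 48 h, and 782.8, 928.0 and 1789.0 at 72 h. Up to 24 h the groups overlap, and after it they do not, with a change of 2.83 (SE 0.27, adjusted p = 1.1e-06) at 72 h. H2BC21 went from 25.8, 24.2 and 23.1 to 130.9, 146.3 and 257.1, a change of 2.21 (SE 0.23). H2BC12L, a gene outside the large cluster, went from 149.5, 146.9 and 165.9 to 479.6, 477.3 and 989.4, a change of 1.88 (SE 0.25). H2BC9 (1.46), H2BC6 (1.16), H2BC15 (0.79) and H2BC4 (0.53) also rose at 72 h. The H2BC15 and H2BC4 calls rest on mean signals under 22 and were lost when single arrays were left out. The 6 probe sets without a call, of H2BC1, H2BC3, H2BC11, H2BC13, H2BC14 and H2BC17, had changes between -0.04 and 0.46 and mean signals under 15 at every time.

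**Figure D2:**
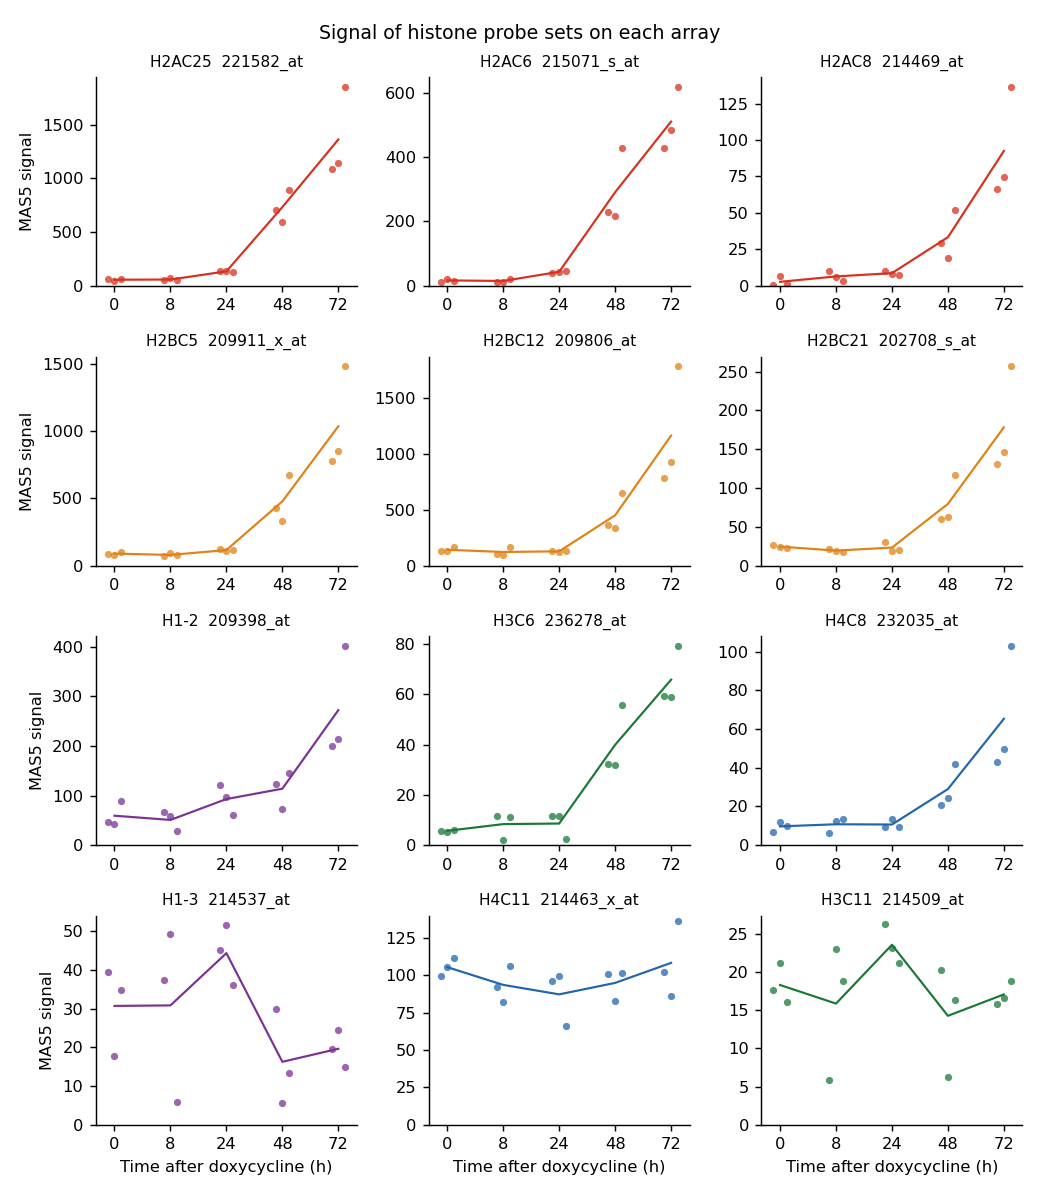
MAS5 signal (linear, each panel with its own scale from 0) on each of the 15 arrays for 12 histone probe sets against time after doxycycline in hours (times evenly spaced); points are arrays, in the order of replicates 1 to 3, and lines join the means. The first 9 panels show probe sets called higher at 72 h, in which most of the rise falls after 24 h; in the last row H4C11 ends at a mean of 108.3 after 105.4 at 0 h, and H1-3 and H3C11 were not called.

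Many H2A and H2B genes stand head to head and share one upstream region. In RefSeq, 12 pairs of replication-dependent histone genes, measured here or not, have overlapping windows on opposite strands. Both genes of the pair were measured in 4 of them. The H2AC6 and H2BC4 partners changed by 3.99 and 0.53 at 72 h, H2AC14 and H2BC14 by 1.05 and -0.00, and H2AC17 and H2BC17 by 1.93 and 0.46. For H2AC15 and H2BC15 the changes were 1.16 and 0.45 on the probe sets of the H2A gene and 0.79 on that of the H2B gene. In each pair the H2B probe set was dim, below the median of all probe sets. Whether partners differ in change was not tested.

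Of the linker histone H1, 2 of 7 probe sets were called higher at 72 h, and the median change was -0.11. H1-2 read 46.7, 42.4 and 88.8 at 0 h, 65.8, 58.0 and 28.6 at 8 h, 120.5, 97.3 and 60.7 at 24 h, 123.3, 72.4 and 145.4 at 48 h, and 199.8, 214.2 and 401.8 at 72 h. The arrays overlap from 0 to 48 h, and only those of 72 h stand clear of 0 h, at a change of 1.92 (SE 0.32, adjusted p = 0.00025). The other call, H1-1 at 0.25 (SE 0.09, adjusted p = 0.047), rests on signals of 5.2, 3.2 and 7.9 after 1.8, 1.7 and 2.4, and was lost under most alternatives. H1-3 went from 39.4, 17.8 and 34.9 at 0 h to 19.6, 24.4 and 14.9 at 72 h (change -0.37, SE 0.35). H1-5 changed by -0.62 (SE 0.22, adjusted p = 0.072) at 48 h and -0.40 at 72 h, and H1-4 (-0.17) and both probe sets of H1-6, a testis gene (0.26 and -0.11), were not called either.

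In H3, which pairs with H4 at the nucleosome's core, the calls came from a single gene, H3C6, on both its probe sets. The probe set with the greater change went from 5.6, 5.4 and 6.1 at 0 h through 11.7, 11.7 and 2.4 at 24 h to 32.2, 32.0 and 55.6 at 48 h and 59.2, 59.1 and 79.2 at 72 h, a change of 1.91 (SE 0.22, adjusted p = 7.5e-06). The other went from 14.4, 6.6 and 5.9 to 45.2, 41.6 and 63.2, a change of 1.40 (SE 0.18). On both, all arrays of 48 and 72 h lie above all arrays of 0 h. The remaining probe sets, of H3C1, H3C2, H3C3, H3C7, H3C8 and H3C11, had changes between -0.29 and 0.53 without a call, and their highest mean at any time was 44.9, for H3C8 at 72 h.

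Of 10 H4 probe sets naming 1 gene, 4 from 3 genes were called higher at 72 h. The H4C8 probe set with the greater change read 6.9, 12.2 and 10.0 at 0 h, 20.8, 24.2 and 42.0 at 48 h, and 43.2, 49.7 and 103.1 at 72 h, a change of 1.60 (SE 0.24, adjusted p = 0.00012), and its other probe set rose by 1.33 (SE 0.23). H4C5 rose by 0.78 (SE 0.22) and H4C4 by 0.65 (SE 0.16). H4C11 read 99.2, 105.6 and 111.5 at 0 h and 102.4, 86.4 and 136.1 at 72 h, and its change of 0.02 (SE 0.15) was not called. H4C1 (0.51), H4C9 (0.14), H4C7 (0.13), H4C13 (-0.19) and the pseudogene H4C10P (-0.19) were not called.

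Of the 20 probe sets naming several histone genes, 13 were called higher at 72 h and 1 lower (all probe sets: 13.5% higher, 9.09% lower). The lower one names 14 H4 genes, and its listed accession is RefSeq's for H4C3. It read 5090.0, 4686.2 and 3814.4 at 0 h, 5417.9, 5368.3 and 1735.3 at 8 h, 4271.3, 5181.4 and 2717.7 at 24 h, 1264.0, 766.2 and 676.7 at 48 h, and 609.4, 646.8 and 400.6 at 72 h. The arrays of 0 to 24 h overlap, and all arrays of 48 and 72 h lie below them. Replicate 3 was the lowest at each of the 5 times. The change was -2.35 (SE 0.36, adjusted p = 0.00025) at 48 h and -3.02 (SE 0.36, adjusted p = 1.1e-05) at 72 h. Over the alternatives in which it was fitted, the 72 h change lay between -3.14 and -2.81, and with the replicate block its SE was 0.22.

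Other probe sets with the same 14 H4 names did not fall with it. The one listing the accession of H4C11 had means of 104.6 at 0 h and 94.1 at 72 h (change -0.13, SE 0.14, not called). The one listing that of H4C2 rose from 2.6, 5.9 and 5.9 to 30.9, 25.2 and 32.5, a change of 1.13 (SE 0.16, adjusted p = 5.1e-05). Neither the one with the H4C14 accession (0.16) nor the one with the H4C8 accession (0.23) was called. What differs between the transcripts these probe sets read was not tested.

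**Figure D3:**
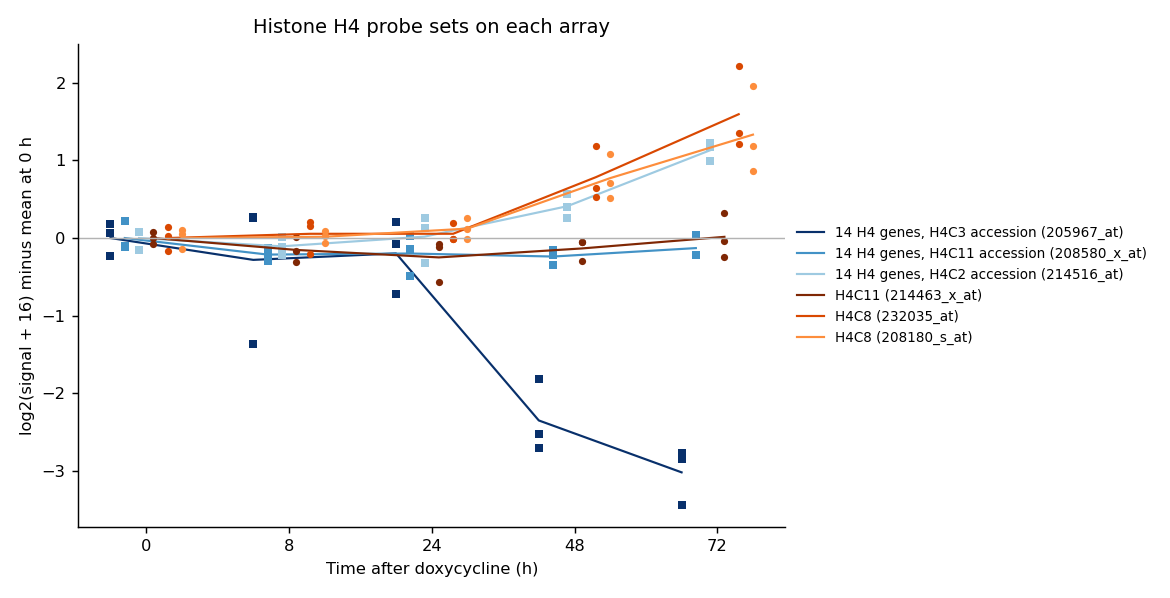
Difference of log2(signal + 16) from the 0 h mean of the same probe set, for 6 histone H4 probe sets on each of the 15 arrays against time after doxycycline in hours (times evenly spaced); squares are probe sets naming 14 H4 genes, circles those naming 1, and lines join the means. The probe set with the H4C3 accession ends at -3.02, the H4C8 probe sets end at 1.60 and 1.33 and the one with the H4C2 accession at 1.13, while the H4C11 probe set (0.02) and the one naming 14 genes with the H4C11 accession (-0.13) end near 0.

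Outside H4, 12 of the 14 several-gene probe sets were called higher at 72 h. Those of H2BC11 with H2BC8 rose by 2.77 (SE 0.25) and 2.47 (SE 0.27), the former from 33.9, 44.1 and 41.8 to 316.6, 263.1 and 574.2. The only probe set naming H2BC11 alone had mean signals of 2.63 and 3.03 and a change of 0.03. An H3 probe set with 10 names (H3C10 accession) went from 17.1, 8.6 and 15.8 to 122.1, 119.8 and 255.3, a change of 2.54 (SE 0.26). For H2AC19 with H2AC18, changes of 2.23 and 1.77 were called on a pair of probe sets, and 0.63 (adjusted p = 0.053 in limma) was not on the other. One H2A probe set with 6 names (H2AC11 accession) had reached its level at 48 h, with means of 88.9 then and 85.3 at 72 h after 26.7 at 0 h.

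From 24 to 48 h 11 members from 9 genes were called higher (all probe sets: 3.17% higher, 2.85% lower). H2AC6 rose by 2.30 in it, H2AC25 by 2.29 and H2BC5 by 1.86. From 48 to 72 h 9 members were called higher (all probe sets: 0.884% higher, 1.38% lower), foremost H2BC12 by 1.31, H2BC12L by 1.26 and H2BC9 by 1.14. Of these, H2BC12L (0.62) and H2BC9 (0.32) had no call at 48 h against 0 h. The count of 9 fell to 0 without replicate 1 or replicate 2 of 48 h and to 1 without replicate 3 of 72 h. Which of these 2 steps holds more calls depends on replicate 3 of 48 h: without it there were 8 calls from 24 to 48 h and 11 from 48 to 72 h, and with replicates 1 and 2 of every time alone 7 and 11. From 8 to 24 h the calls were H2AC25 (1.02) and H2AC6 (0.94), with 0.401% of all probe sets called higher and 0.692% lower, and they went to 0 without replicate 1 or 3 of 8 h or any array of 24 h. No member was called lower in a step. Unadjusted p-values from limma fell under 0.05 in either direction for 7, 17 and 25 members in the 3 steps in order of time. For these unadjusted counts too the share of all probe sets is not given.

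Of 23 measured genes for histone transcription and 3′ end processing, 3 rose and 8 fell at 72 h. Over all probe sets 13.5% were called higher and 9.09% lower at that time, but list genes stand on their brightest probe set. A fit of the 13654 brightest probe sets alone called 4177 higher and 3844 lower. Another, of 1 probe set per gene at or above the median, called 3861 higher and 2670 lower of 11774. The list counts come from the fit of all probe sets, so neither background is an exact match. Whether this list or the decay list below differs from them was not tested, and their counts are not read as a result. SLBP, the stem-loop binding protein, read 1565.6, 1498.5 and 1487.1 at 0 h, 920.4, 951.7 and 884.6 at 24 h, 501.2, 477.0 and 395.3 at 48 h, and 362.1, 360.2 and 386.2 at 72 h. Its arrays fell below those of 0 h at every step shown, with changes of -0.71 (SE 0.09) at 24 h, -1.70 at 48 h and -1.99 (SE 0.09, adjusted p = 3.1e-10) at 72 h. E2F1, a transcription factor of the entry into S phase, fell by 1.64 (SE 0.12), and CASP8AP2, a partner of NPAT, fell by 0.97 (SE 0.09). NPAT itself had means of 152.6 and 156.3 and a change of 0.03 (SE 0.11), and CRAMP1 rose by 0.55.

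Of 18 genes for histone mRNA decay and polyadenylation, 5 rose and 6 fell at 72 h. NUDT21, a subunit of cleavage factor I that guides the choice of poly(A) site, fell by 1.09 at 24 h and by 1.85 (SE 0.11) at 72 h, with signals of 1378.8, 1382.5 and 1190.3 at 0 h and 367.3, 382.9 and 313.5 at 72 h. ERI1, the exonuclease that trims the histone stem-loop, fell by 0.79, and EXOSC9, an exosome subunit, fell by 1.33. PABPN1, the nuclear poly(A) binding protein, rose by 0.65 and the uridylyltransferase TUT4 by 0.63. Both lists thus held genes that moved each way.

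The genes listed as replication-independent histone variants did not share the rise. When in the cell cycle each of them is made in these cells was not measured. Of 9 measured variants 0 were called higher and 5 lower at 72 h, among them the centromeric CENPA (-1.69), H2AX (-1.36), H2AZ1 (-0.96) and H2AZ2 (-0.92). H2AJ had a change of -0.26 without a call. Of 18 chaperones and assembly factors 2 rose and 12 fell, among them HJURP (-2.82), CHAF1B (-2.13), CHAF1A (-1.68) and ASF1B, whose mean signal went from 276.5 to 57.7. All 37 measured S phase and replication genes fell at 72 h, with a median change of -2.13, and changes of -3.33 for MCM10, -2.94 for CDC6, -2.93 for RRM2, -2.83 for CDC45 and -1.47 for PCNA, the sliding clamp. Over all probe sets 13.5% were called higher and 9.09% lower at 72 h. A fit of the 13654 brightest probe sets alone called 4177 higher and 3844 lower. One of 1 probe set per gene, at or above the median, called 3861 higher and 2670 lower of 11774. Whether the lists differ from these shares was not tested. The comparisons of these lists share the 0 h arrays with those of the histone genes.

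**Figure D4:**
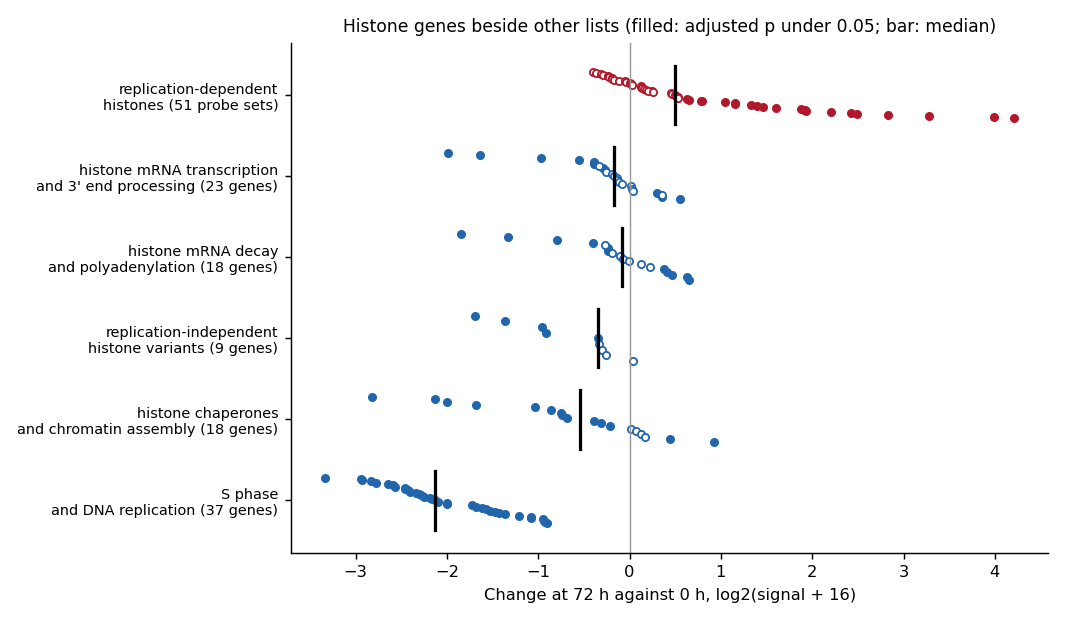
Change at 72 h against 0 h on the log2(signal + 16) scale for the 51 histone probe sets and for the measured genes of 5 lists (brightest probe set of each gene); filled points are called at an adjusted p under 0.05 and the bar is the median. The histone median is 0.50, that of the S phase list is -2.13 and those of the other lists lie between -0.54 and -0.08.

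Array quality and cell markers were read beside these values. The ratio of 3′ to 5′ signal lay between 1.10 and 1.19 for ACTB at 0 h and between 1.21 and 1.35 at 72 h, and for GAPDH between 0.974 and 1.07 over all arrays. Median signal was 15.6 to 16.9 at 0 h and 17.3 to 20.5 at 72 h. The lowest array weight in limma, 0.548, was that of replicate 3 at 72 h. Summed noradrenergic neuroblastoma markers (8 measured, among them MYCN) lay between 10405.8 and 10800.4 at 0 h and between 12641.4 and 13594.4 at 72 h, while TH, which makes catecholamines, was at or under 9.5 on every array. Summed fibroblast markers lay between 379.1 and 553.8 at 0 h and between 787.5 and 1081.9 at 72 h, with 3 of 8 called higher: LUM, from a mean of 13.7 to 346.3, PDGFRB and THY1. Immune, endothelial and epithelial sums stayed at or under 69.3 on every array, with 0 called. The part of these measures in the histone changes was not tested.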

How the data were processed

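The deposited table holds linear signal intensity for 54675 probe sets on 15 arrays, 3 per time, made with MAS5 and GCOS, per the submitters' processing notes, with no versions stated. The labels' protocols give 4 µg of total RNA and one-cycle labelling. The trimmed mean (2% at each end) was 100.01 on all arrays, so no scaling was added to the deposited intensity. Precision is limited by having 3 arrays per time. After 62 controls were left out, 41092 probe sets named 1 gene, 1800 several and 11721 none. The genome build of the array annotation is not given in the sources used here.

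Values were taken as log2(signal + 16) of the deposited intensity and fitted over all 5 times with limma 3.58.1 (lmFit, eBayes with trend=TRUE) in R 4.3.3, without a filter on low values, so that every member had a test. Benjamini-Hochberg adjustment ran over 54613 probe sets in each of 7 comparisons, at 0.05. Of the 51 members 26 had a mean log2 value at or above the median of all probe sets. The fit was checked on simulated data with independent noise and few changed probe sets, all of them bright. That check cannot speak for dim members or for arrays that deviate together. Tables and figures were made with Python 3.11.15, pandas 2.3.3 and matplotlib 3.10.9.

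The members and lists were chosen with earlier results of these data known. Genes were named by rule: in each class up to 5 members with the greatest called change at 72 h and arrays apart from 0 h, the 2 with the smallest change, all members called by 24 h, all probe sets of genes with several, the 3 greatest per step, up to 4 called genes per list, CDK2, and a few fixed genes. The remaining members, all probe sets naming several genes, and TUT4, LUM, PDGFRB, THY1 and TH were named after their values were seen. Each other gene stands on its brightest probe set. Upstream sequences and motif counts come from RefSeq (GRCh38.p14).

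No label states that arrays with the same replicate number were handled together. Alternatives changed the pseudocount (1 or 64), the scaling (quantile, or centring on medians), the filter, the probe sets per gene, the variance prior, array weights, the arrays fitted and a replicate block, or added a change of at least 1. Single arrays were left out one by one, and replicates 1 and 2 alone were fitted as a choice made after the data were seen.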

Additional observations from a re-analysis of the deposited data

How the results depend on the processing

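No change that was called turned its direction under any alternative. The 24 higher calls at 72 h ranged from 21 to 24 with single arrays left out, the 12 at 48 h from 9 to 15, and the 11 from 24 to 48 h from 8 to 13. The 2 at 24 h ranged from 1 to 2, the 2 from 8 to 24 h from 0 to 2, and the 9 from 48 to 72 h from 0 to 11. Lower calls ranged from 0 to 1 with single arrays left out at 48 h, from 24 to 48 h and from 48 to 72 h. With the brightest 25% of probe sets, where 8 members remain, the higher calls were 7 at 72 h, 6 at 48 h, 6 from 24 to 48 h, 5 from 48 to 72 h and 1 at 24 h and from 8 to 24 h. That filter takes the mean over all 15 arrays, so it favours members that rose, and these counts are no separate support. Of the 13654 probe sets it kept, 4177 were called higher at 72 h. At 24 h 1 call remained with pseudocount 64, either scaling, no intensity trend or a change of 1 in addition. From 8 to 24 h it was 0 with pseudocount 64, and 1 with either scaling, no intensity trend, the arrays of the times compared only, or a change of 1 in addition. From 48 to 72 h it was 0 with the arrays of those times alone. Lower calls at 48 h were 2 with arrays centred on their medians, 1 with array weights, 1 with the replicate block and 1 with the arrays of the times compared only. From 24 to 48 h there was 1 lower call with 1 probe set per gene and 1 with array weights. With replicates 1 and 2 alone there were 7 higher calls from 24 to 48 h and 1 lower call each at 8 h and 24 h. The cause was not tested, except that fewer members remain among the brightest probe sets.

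The calls lost at 72 h were those of H1-1, H2BC4, H2BC15, H2AC5P and H4C5, under pseudocount 1, either scaling, single arrays left out, the arrays of the times compared only, or replicates 1 and 2 alone; H1-1 was also lost without the intensity trend with array weights and with the replicate block. At 48 h both H4C8 calls were lost with pseudocount 64, either scaling, any array of 0 h left out or without replicate 3 of 48 h, and that of the second H2BC5 probe set without replicate 3 of 48 h. Centring arrays on their medians moved the median change of all probe sets at 72 h from 0.05 to -0.07 and the split of calls in the whole table from 7353 higher and 4967 lower to 4955 and 6809, while 20 of the 24 members kept their call. Same-numbered arrays correlated in their deviations at -0.110 to 0.284 over the 7 comparisons. In none were all 3 pairs above 0.1, so the main fit did not take the numbers to pair the arrays. That cut cannot show that the arrays are unpaired. With the replicate block the whole table had 7736 higher and 5216 lower calls at 72 h, and 23 of the 24 members kept their call. Signals near the detection floor limit what can be said of the 21 dim members without a call.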
